A study of Mus musculus with 18 samples.

Results

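The mitotic kinesins are microtubule motors that a cell makes to divide, and 10 of them are described here in mouse pre-B cells: Kif2c, Kif4, Kif11, Kif14, Kif15, Kif18a, Kif18b, Kif20a, Kif22 and Kif23. The question was whether they fell further after withdrawal of interleukin 7 (IL-7) in cells labelled as lacking Nfkb2. Kif2c, Kif11 and Kif18b were chosen because earlier results of the same arrays showed them falling further in those cells, so in every comparison that uses the chosen groups their values are a description with no test. The question is put to the other 7. The array had 16 probes for 9 of the 10 genes, out of 25697 probes in all, and no probe carried the symbol Kif14. Of these probes 12 were detected on at least 3 arrays, which left 8 genes among the 8446 gene entries tested, 5 of them outside the 3 chosen genes: Kif4, Kif15, Kif18a, Kif22 and Kif23. The single Kif20a probe was detected on none of the 18 arrays.

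RNA was measured on 18 one-colour Illumina MouseRef-8 arrays from 9 pre-B cell cultures, each sampled once in IL-7 and once 2 days after IL-7 was taken away. Cultures came from bone marrow of mice 4 to 6 weeks old of mixed C57BL/6 and BALB/c strain, and were grown for 7 to 10 days with 5 ng/mL IL-7, a cytokine on which early B cells depend for growth. Each of 3 genotypes had 3 cultures, which makes 6 groups of 3 arrays. Rag-labelled cells are Rag1-/-:μIgH:Bcl2, Art-labelled cells Art-/-:μIgH:Bcl2 and Art:Nfkb2-labelled cells Art-/-:Nfkb2-/-:μIgH:Bcl2. All groups carry the μIgH and Bcl2 transgenes, and the sources used here do not give the promoters that drive them. RAG1 is needed to cut antigen receptor genes, Artemis (Art) opens the hairpin ends that RAG leaves, and Nfkb2 encodes p100/p52 of the noncanonical NF-kB pathway. One label field writes the third genotype without the knockout mark on Nfkb2, and the titles and design text were followed. The Nfkb2 probe showed no loss in these cells: after withdrawal its log2 signal was 9.21 ± 0.18 (SD, n = 3), beside 8.80 ± 0.05 for the Art label and 7.56 ± 0.09 for the Rag label. The sources used here do not say where this probe lies relative to the deletion, so it does not check the label. The Rag1 probe was likewise detected in Rag1-/- cells, at 11.61 ± 0.28 in IL-7 against 9.45 ± 0.26 in Art-labelled cells and at 12.72 ± 0.27 against 11.37 ± 0.19 after withdrawal (SD, n = 3). It does not check the label for the same reason, and groups are named by label throughout.

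Kinesins walk along or shorten microtubules by splitting ATP. In dividing cells Kif11 (Eg5) slides antiparallel microtubules apart and so separates the spindle poles, and Kif15 helps to keep them apart. Kif2c (MCAK) takes microtubules apart at kinetochores, Kif18a damps the movements of chromosomes on the metaphase plate and Kif18b shortens the microtubules that reach the cell cortex. Kif4 and Kif22 (Kid) bind chromatin and push or organise chromosome arms, and Kif4 also works with Prc1 on the spindle midzone. Kif23 (MKLP1) is the motor of centralspindlin, which marks the place of cytokinesis, where Kif14 and Kif20a also act. Early B cells divide in IL-7 and leave the cell cycle when it is lost, and genes of mitosis are as a rule made in G2 and M phase under the MuvB, B-Myb and FoxM1 factors. In bulk RNA, fewer dividing cells and less kinesin RNA per cell cannot be told apart.

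Genes made in G2 and M phase often hold a CHR element, to which MuvB binds, with letters such as TTTGAA or TTTAAA, and CCAAT boxes, which NF-Y binds. The stretches below show where these letters lie in 8 kinesin promoters, because the members fell together on withdrawal. Sequences are from RefSeq (GRCm38.p6), 80 bases from 50 before to 30 after the annotated start, 5′ to 3′ on the gene's strand, with base 1 the first base of the transcript. Capitals mark TTTGAA and CCAAT, or their reverse complements TTCAAA and ATTGG.
Kif11 (chr19:37376332-37376411, + strand): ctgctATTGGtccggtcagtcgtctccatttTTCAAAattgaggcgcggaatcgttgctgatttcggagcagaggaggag
Kif15 (chr9:122951031-122951110, + strand): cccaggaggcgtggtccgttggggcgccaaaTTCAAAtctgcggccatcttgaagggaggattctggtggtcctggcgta
Kif18b (chr11:102925095-102925174, − strand): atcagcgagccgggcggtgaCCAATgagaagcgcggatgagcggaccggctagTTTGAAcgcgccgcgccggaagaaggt
Kif4 (chrX:100626015-100626094, + strand): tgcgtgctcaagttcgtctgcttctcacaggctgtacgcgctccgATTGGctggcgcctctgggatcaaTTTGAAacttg
Kif22 (chr7:127042391-127042470, − strand): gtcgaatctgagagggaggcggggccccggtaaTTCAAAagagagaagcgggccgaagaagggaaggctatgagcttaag
Kif23 (chr9:61946770-61946849, − strand): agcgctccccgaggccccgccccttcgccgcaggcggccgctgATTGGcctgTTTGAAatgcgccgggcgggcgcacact
Kif2c (chr4:117178743-117178822, − strand): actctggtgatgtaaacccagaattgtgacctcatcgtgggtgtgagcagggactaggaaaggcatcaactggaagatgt
Kif18a (chr2:109280688-109280767, + strand): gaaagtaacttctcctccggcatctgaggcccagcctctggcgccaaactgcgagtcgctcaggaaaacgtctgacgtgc

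RefSeq held a window of 300 bases for 9 of the 10 members. On either strand TTTGAA stood in 8 of 9 windows, against 17.9% of 32851 windows of all genes. It lay within 30 bases of the start in 6 of 9, namely Kif4, Kif11, Kif15, Kif18b, Kif22 and Kif23, against 3.44% of all windows, and that distance was chosen after the matches were seen. In Kif11, Kif15 and Kif22 it ended 12 to 14 bases before the start, and in Kif18b, Kif23 and Kif4 it began at base 4, 3 and 20. TTTAAA stood in 2 of 9 windows (13.2% of all) and CCAAT in 6 of 9 (37.4% of all), counted on both strands, and none of the letter strings overlapped another in the stretches shown. The letters describe these windows and are not sites shown to be bound. Kif18a held TTTGAA in no part of its window and Kif2c only further upstream, and the 3 chosen genes were split between windows with and without TTTGAA near the start.

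The kinesins shared 1 order of group means. Art:Nfkb2-labelled cells were lowest and Art-labelled cells highest in 8 of 8 genes in IL-7. The same order stood in 7 of 7 after withdrawal, where Kif18a had no detected signal. These counts include the 3 chosen genes, whose steep fall in Art:Nfkb2-labelled cells was the reason for their choice. Outside them the order held in 5 of 5 in IL-7 and in 4 of 4 after withdrawal. The top place of Art-labelled cells rested on single arrays in some genes. Without withdrawn Art-labelled array 3 they stood below Rag-labelled cells in Kif4 (-0.0275), Kif2c (-0.144) and Kif11 (-0.0687). In IL-7 the same held for Kif18a without Rag-labelled array 1 (-0.0455). Rag-labelled and Art-labelled arrays overlapped in 6 of 8 genes in IL-7 and in 6 of 7 after withdrawal, the 3 chosen genes included. The shares of all entries with this order or this overlap were not counted, so these counts are a description only. Of the genes outside the 3 chosen ones, every Art:Nfkb2-labelled array lay below every Art-labelled array in 5 of 5 in IL-7, as in 10.6% of all entries. After withdrawal this held in 4 of 4 (12.7% of all entries). Against Rag-labelled arrays it held in 0 of 5 in IL-7 (13.4% of all entries) and in 4 of 4 after withdrawal (18.6% of all entries). Levels below are log2 signals after background correction and quantile normalization with an offset of 16, which understates differences of dim probes, and the lowest signal at which any probe was detected lay between 5.98 and 6.38 on these arrays.

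**Figure D1:**
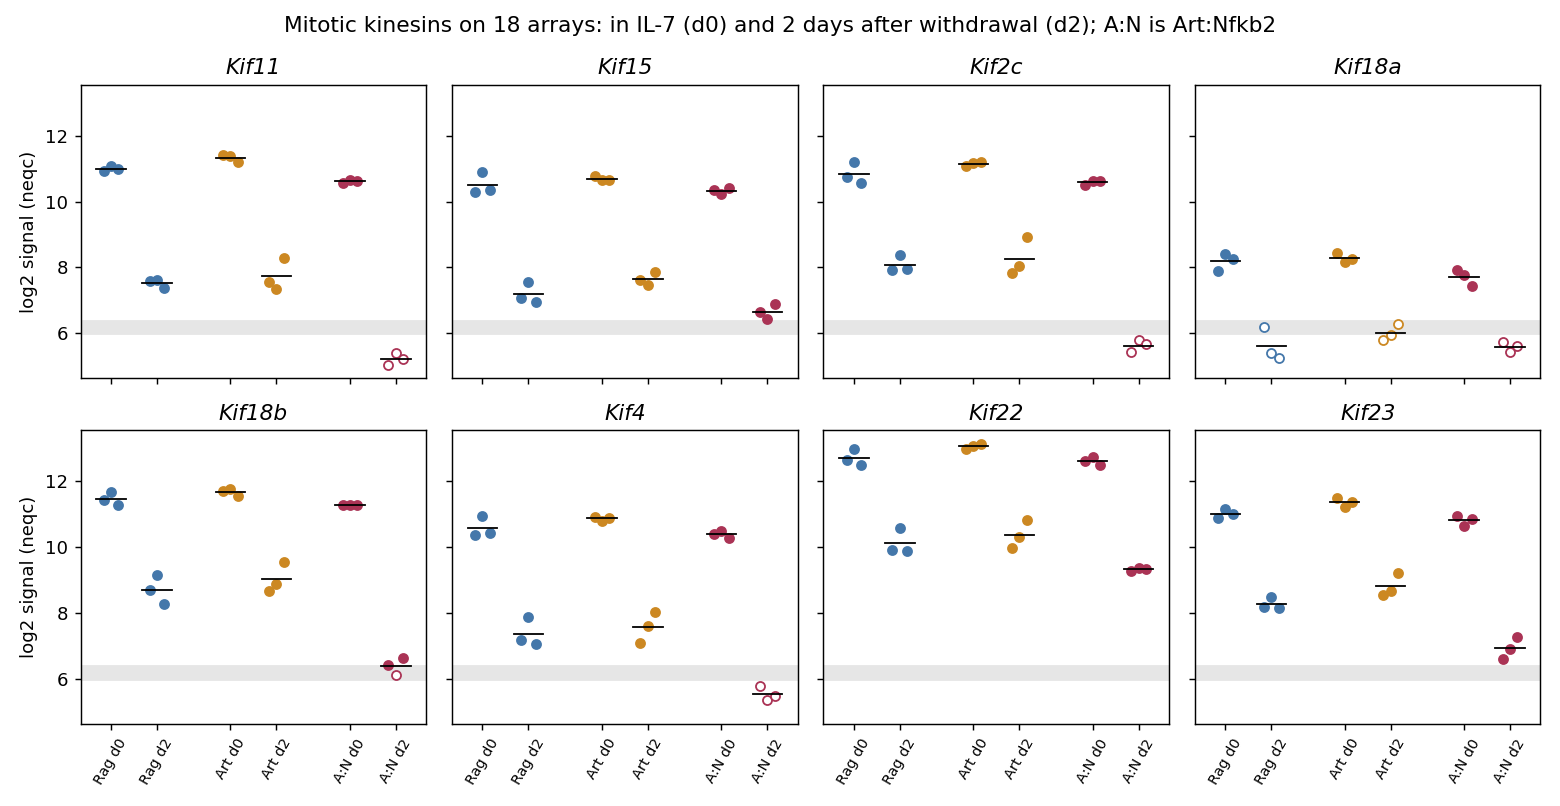
Log2 signal (y axis) of 8 mitotic kinesins on 18 arrays, by genotype label and day (x axis; d0 is in IL-7, d2 is 2 days after withdrawal; A:N is Art:Nfkb2). Filled points are detected signals, open points are not detected, bars are means of 3 arrays, and the grey band spans the lowest detected signal per array, 5.98 to 6.38; Kif2c, Kif4 and Kif11 have only open points in withdrawn Art:Nfkb2-labelled cells, and Kif18a has only open points in withdrawn cells of every genotype.

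Withdrawal of IL-7 lowered the kinesins in Rag-labelled cells, a genotype not named in the reason for choosing the 3 genes. The list of members was chosen with earlier results of these data known. Of 7 genes with a detected withdrawn signal 7 passed the threshold (limma, Benjamini-Hochberg adjusted p below 0.05 over all entries), where 19.4% of all entries were called lower. They changed by -3.48 (Kif11) to -2.58 (Kif22) on the log2 scale, with adjusted p between 8.53e-10 and 1.64e-07 and a median of -2.74, against 0.10 over all entries. Kif18a passed the detection filter through its IL-7 arrays alone, a choice that favours a fall, so it is given apart. It is left out of counts that use withdrawn arrays except where it is named as included.

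The spindle pole motors Kif11 and Kif15 lay lower on every withdrawn array than on any array in IL-7. Kif11 read 10.91, 11.09 and 11.00 on the 3 Rag-labelled arrays in IL-7 and 7.59, 7.62 and 7.37 after withdrawal, a change of -3.48 (SE 0.18, adjusted p = 8.53e-10). In Art-labelled cells Kif11 read 11.42, 11.38 and 11.20 in IL-7 and 7.55, 7.36 and 8.29 after withdrawal, a change of -3.60. In Art:Nfkb2-labelled cells it read 10.57, 10.66 and 10.62 in IL-7 and 5.05, 5.40 and 5.23 after withdrawal. The last 3 signals were not detected, so the fall there is at least 20-fold, against 12.1-fold in Art-labelled cells; this is the behaviour for which Kif11 was chosen.

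Kif15 kept a detected signal on all 18 arrays. In IL-7 the Rag-labelled arrays read 10.28, 10.88 and 10.36, the Art-labelled arrays 10.76, 10.66 and 10.65, and the Art:Nfkb2-labelled arrays 10.35, 10.24 and 10.40. After withdrawal it read 7.07, 7.55 and 6.94, then 7.62, 7.47 and 7.85, then 6.65, 6.45 and 6.89 in the same order. The withdrawn Art:Nfkb2-labelled arrays were all below the others, by a small margin to the lowest Rag-labelled array. The Rag-labelled cells changed by -3.32 on withdrawal, the Art-labelled by -3.05 and the Art:Nfkb2-labelled by -3.67 (SE 0.17 each), and each change was called. Its other 2 probes were detected on no array.

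Among the motors that shorten or steady kinetochore and astral microtubules, Kif2c and Kif18b were chosen genes. Kif2c read 7.93, 8.39 and 7.95 in withdrawn Rag-labelled and 7.83, 8.06 and 8.91 in withdrawn Art-labelled cells, and 5.43, 5.79 and 5.67, none detected, in withdrawn Art:Nfkb2-labelled cells. Its changes on withdrawal were -2.74, -2.88 and -4.95, the last a fall of at least 19.5-fold. Kif18b read 8.71, 9.14 and 8.27, then 8.66, 8.87 and 9.53, then 6.41, 6.13 and 6.62 on withdrawn arrays in the same order. Its Art:Nfkb2-labelled values stood near the limit of detection, with 2 of 3 arrays detected, and the changes were -2.74, -2.65 and -4.89.

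Whether Kif18a shared that pattern could not be read from these arrays. In IL-7 the Rag-labelled arrays read 7.89, 8.41 and 8.27, the Art-labelled arrays 8.44, 8.17 and 8.27, and the Art:Nfkb2-labelled arrays 7.91, 7.77 and 7.44, all detected, and no withdrawn array was. Its falls are therefore bounds, of at least 3.61-fold, 3.83-fold and 2.67-fold, given with no test. With no signal after withdrawal in any genotype, a difference between its falls could not be measured.

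The chromatin-binding kinesins fell in every genotype. For Kif4 the IL-7 arrays read 10.37, 10.93 and 10.41 under the Rag label, 10.91, 10.80 and 10.88 under the Art label, and 10.39, 10.49 and 10.26 under the Art:Nfkb2 label. After withdrawal it read 7.17, 7.87 and 7.07, then 7.10, 7.59 and 8.03, then 5.78, 5.36 and 5.47. The last 3 arrays were not detected and lay below all other withdrawn arrays, so that its change of -4.84 there is a fall of at least 17-fold, beside -3.20 for the Rag label and -3.29 for the Art label (SE 0.23 each).

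Kif22 was detected on all 18 arrays and lay far above the limit. Its IL-7 arrays read 12.64, 12.97 and 12.49 under the Rag label, 12.97, 13.06 and 13.13 under the Art label, and 12.61, 12.73 and 12.49 under the Art:Nfkb2 label. After withdrawal it read 9.92, 10.56 and 9.87, then 9.98, 10.30 and 10.81, then 9.27, 9.36 and 9.33. The withdrawn Art:Nfkb2-labelled arrays were close to each other and below the rest. The changes were -2.58, -2.69 and -3.29 (SE 0.20 each).

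Kif23, the centralspindlin motor, was detected on all 18 arrays too. In IL-7 its Rag-labelled arrays read 10.87, 11.16 and 10.99, its Art-labelled arrays 11.48, 11.21 and 11.36, and its Art:Nfkb2-labelled arrays 10.95, 10.64 and 10.84. After withdrawal it read 8.19, 8.47 and 8.16, then 8.54, 8.67 and 9.21, then 6.61, 6.92 and 7.28. No withdrawn Art:Nfkb2-labelled array reached the lowest array of another genotype. The changes were -2.73, -2.54 and -3.88 in the same order (SE 0.18 each). Of the kinesins outside the chosen genes, Kif18a aside, 4 of 4 were called lower on withdrawal in Art-labelled cells, where 18.8% of all entries were, and 4 of 4 in Art:Nfkb2-labelled cells, where 17.9% were.

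Whether the fall was steeper without Nfkb2 was tested as the difference between withdrawal responses, Art:Nfkb2-labelled minus Art-labelled. Kif23 fell further, by 1.33 on the log2 scale (SE 0.26, adjusted p = 0.0487), a response 2.52-fold deeper, and was the 1 of 4 kinesins called, where 0.107% of all entries were called lower and 0.213% in either direction. Kif4 differed by -1.55 (SE 0.33, adjusted p = 0.078), or by -0.80 with its undetected arrays set to the detection limit. For Kif15 the difference was -0.62 (95% interval -1.15 to -0.09, adjusted p = 0.689) and for Kif22 -0.60 (interval -1.19 to -0.00224, adjusted p = 0.807). Neither was called, and both intervals lie below 0. The chosen genes differed by -2.07 (Kif2c), -1.79 (Kif11) and -2.24 (Kif18b), or by -1.41, -0.73 and -2.17 with undetected arrays at the limit.

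The Kif23 call was close to the threshold. It was lost when any array of the Art-labelled or Art:Nfkb2-labelled cultures was left out except withdrawn Art-labelled array 1 or withdrawn Art:Nfkb2-labelled array 3 (adjusted p 0.0696 to 0.147 where lost), and when any of these cultures was left out (0.0787 to 0.30), while its difference stayed between -1.53 and -1.09 in every setting tried. It was called in 4 of 26 other settings. With the culture as a replicate block, which compares each culture with itself, Kif23 (adjusted p = 0.0289) and Kif4 (0.0168) were both called, Kif15 (0.0794) and Kif22 (0.171) were not, and 92 of all entries were called in place of 18. Without withdrawn Art-labelled array 1 Kif4 was called as well (difference -1.79, adjusted p = 0.0296).

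Read culture by culture, all 3 Art:Nfkb2-labelled cultures fell further than every Art-labelled and every Rag-labelled culture in Kif4, Kif15, Kif22 and Kif23, 4 of 4, where 3.67% of all entries separated this way. Kif2c, Kif11 and Kif18b, chosen for this behaviour, did so too. Kif23 changed by -2.68, -2.69 and -2.84 in the Rag-labelled cultures, by -2.94, -2.54 and -2.15 in the Art-labelled and by -4.34, -3.72 and -3.57 in the Art:Nfkb2-labelled cultures. The mean change over the 8 genes was -2.79, -2.91 and -3.06, then -3.21, -3.00 and -2.41, then -4.20, -4.20 and -3.98. The Art-labelled culture 3 fell least in each of the 8 genes among the Art-labelled cultures, and its withdrawn array was the highest of the 3 in 8 of 8. That mean and these counts include the 3 chosen genes and Kif18a, undetected after withdrawal, and are given with no test.

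**Figure D2:**
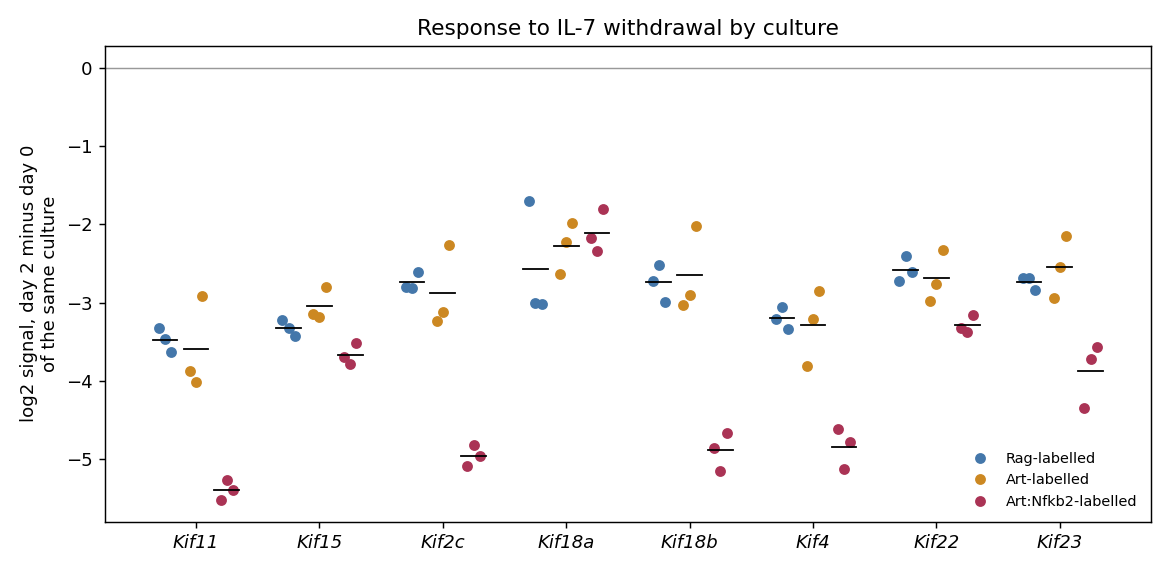
Change in log2 signal from IL-7 to 2 days after withdrawal (y axis) in each of 9 cultures, by gene (x axis) and genotype label (colour); bars are means of 3 cultures. The 3 Art:Nfkb2-labelled cultures lie below the other 6 in 7 genes and not in Kif18a, where all withdrawn arrays were undetected.

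The Rag-labelled cells gave a second reference. Against them, Art:Nfkb2-labelled cells fell further in Kif4, by 1.64 on the log2 scale (SE 0.33, adjusted p = 0.015; -0.89 with undetected arrays at the limit), and in Kif23, by 1.14 (SE 0.26, adjusted p = 0.0296). These were 2 of 4, where 0.947% of all entries were called lower. Kif22 differed by -0.71 (adjusted p = 0.273) and was called with the replicate block (0.0432), and Kif15 differed by -0.34 (0.627). The Kif4 call was lost without Art:Nfkb2-labelled culture 1 (0.0535), culture 2 (0.112) or culture 3 (0.0636), and with the mean of its probes (-0.88, adjusted p = 0.234). The Kif23 call was lost without any 1 of the 6 cultures except Art:Nfkb2-labelled culture 3 (0.0574 to 0.19 where lost), without some single arrays (0.0514 to 0.0887) and with arrays scaled to a common median (-0.90, adjusted p = 0.0998). This comparison shares the Art:Nfkb2-labelled arrays with the one before it, so the 2 are not independent. Y-linked Eif2s3y and Kdm5d were detected in all 3 Rag-labelled cultures and in Art:Nfkb2-labelled culture 3, and Xist in the other 5. Between Art-labelled and Rag-labelled cells, sex of the culture and genotype therefore cannot be told apart. Art:Nfkb2-labelled culture 3 changed by -4.78 in Kif4, which is X-linked, and by -3.57 in Kif23. The Rag-labelled cultures changed by -3.21, -3.05 and -3.34 in Kif4 and by -2.68, -2.69 and -2.84 in Kif23. Sex was also uneven between Art:Nfkb2-labelled and Art-labelled cultures, and its part in any difference was not tested.

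Between the 2 genotypes that keep Nfkb2, no difference in the fall was called. The difference of responses, Art-labelled minus Rag-labelled, was -0.11 for Kif22, -0.09 for Kif4, 0.19 for Kif23 and 0.27 for Kif15, and 0 of 4 were called by limma, with 0 at an unadjusted p below 0.05, where 1.27% of all entries were called. The intervals reached from -0.78 to 0.61 for Kif4 and from -0.35 to 0.74 for Kif23, which does not show that the responses were equal. The chosen genes differed by -0.14 (Kif2c), -0.12 (Kif11) and 0.09 (Kif18b).

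The level after withdrawal was tested as well. In Art:Nfkb2-labelled against Art-labelled withdrawn cells 4 of 4 kinesins were lower, where 2.21% of all entries were called lower. Kif23 was lower by 1.87 on the log2 scale (3.66-fold, SE 0.18, adjusted p = 1.12e-05), Kif22 by 1.04 (2.06-fold, SE 0.20, adjusted p = 0.00542) and Kif15 by 0.98 (1.97-fold, SE 0.17, adjusted p = 0.00319). Kif4 was at least 2.43-fold lower (adjusted p = 5.1e-05). These 4 calls held in all 20 other settings, where the largest adjusted p was 0.00502 for Kif23, 0.0413 for Kif22, 0.0347 for Kif15 and 0.00447 for Kif4. Among the chosen genes Kif2c was at least 3.94-fold and Kif11 at least 2.72-fold lower, and Kif18b differed by -2.63.

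A smaller difference of the same sign stood in IL-7. All 8 kinesins were lower in Art:Nfkb2-labelled than in Art-labelled cells, by log2 differences of -0.72 (Kif11) to -0.36 (Kif15). None of the 5 outside the chosen genes was called by limma, where 1.39% of all entries were called lower and 4.39% in either direction, though 3 of 5 had an unadjusted p below 0.05. The nearest was Kif23 at -0.54 (adjusted p = 0.121). Kif4, at -0.48, was called when the fit held only these groups (adjusted p = 0.038).

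Between Art-labelled and Rag-labelled cells no tested kinesin level was called different on either day. Sex of the culture and genotype cannot be told apart in this comparison. After withdrawal Kif23 was 0.54 higher in Art-labelled cells (adjusted p = 0.0506) and Kif15 0.46 higher (0.0818), and 0 of 4 were called by limma, with 2 of 4 at an unadjusted p below 0.05, where 19% of all entries were called. Leaving out withdrawn Rag-labelled array 2 brought both past the threshold (0.0374 for Kif23 and 0.0152 for Kif15), and leaving out withdrawn Art-labelled array 1 brought Kif23 past it (0.0301). Rag-labelled array 2 was the highest of its group in 8 of 8 kinesins in IL-7 and in 7 of 8 after withdrawal, with the undetected Kif18a included. In IL-7 the differences were 0.10 to 0.35 and 0 of 5 were called, with 0 at an unadjusted p below 0.05, where 6.46% of all entries were.

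Some markers of other cells differed between Art:Nfkb2-labelled and Art-labelled cells. All 7 B-lineage markers with a probe were detected in every group, at a summed linear signal of 84260 to 90090 in Art:Nfkb2-labelled and 87350 to 88760 in Art-labelled arrays in IL-7, and 87200 to 89240 against 83650 to 88550 after withdrawal. Vpreb1, of the surrogate light chain, was the 1 of the 7 called between these groups, with a difference of -1.51 after withdrawal (adjusted p = 0.000874). The summed linear signal of the 12 myeloid markers with a probe was 17620 to 27130 in Art:Nfkb2-labelled and 7418 to 8751 in Art-labelled arrays in IL-7, and 8213 to 11860 against 3629 to 4170 after withdrawal. Of the 10 that were tested, 5 were called higher in IL-7, where 4.39% of all entries were called in either direction, and 1 after withdrawal. Itgam and Cybb were detected in no group, and Mpo, Elane and Ctsg in neither withdrawn group. Rag-labelled arrays overlapped the Art:Nfkb2-labelled range in IL-7, at 7849 to 22910, and lay below it after withdrawal, at 1835 to 7852. Of 9 T and NK cell markers 7 were detected in no group, Cd3e, Cd4 and Cd8a among them, and Nkg7 of cytotoxic granules was higher in Art:Nfkb2-labelled than in Art-labelled cells in IL-7 (1.92, adjusted p = 0.00369). The summed T and NK signal was 1191 to 1615 against 682 to 1161 in IL-7 and 363 to 526.6 against 353.5 to 428.9 after withdrawal. Of 5 mature B and plasma cell markers with a probe, Ms4a1 (CD20) was higher in IL-7 (1.57, adjusted p = 0.0255) and Fcer2a (CD23) after withdrawal (1.09, adjusted p = 0.00124), while Cr2 and Prdm1 were detected in no group. Sdc1, the other of the 3 tested, differed in the opposite direction on both days and was not called. After withdrawal 3 of 3 had an unadjusted p below 0.05 by limma. The summed signal of the 5 markers was 501.2 to 736.9 against 352.5 to 560.9 in IL-7 and 954.9 to 1267 against 889.1 to 906 after withdrawal. No tested erythroid, megakaryocyte or stromal marker was called between these 2 genotypes on either day, and no mast or basophil marker with a probe was detected. The part of any of these other cells in the kinesin differences was not tested.

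Probes of 1 gene did not always show the same size. Kif4 had 3 probes, and the brightest, used above, changed on withdrawal by -3.20, -3.29 and -4.84 (Rag, Art and Art:Nfkb2 labels, an order kept below). The second changed by -2.74, -3.29 and -3.48 and the dimmest by -3.20, -3.08 and -3.44. Their Art:Nfkb2-minus-Art differences were -0.20 (adjusted p = 0.997) and -0.37 (0.995), and against Rag-labelled cells -0.74 (0.287) and -0.25 (0.893). In withdrawn cells these 2 probes were detected on 1 of 3 and 0 of 3 Rag-labelled arrays and on no array of the other genotypes, so a further fall in Art:Nfkb2-labelled cells was below what they could measure. Kif18b showed the same split with no test, with differences of -2.24 and -2.03 on its brighter 2 probes and -0.57 on the dimmest, which no withdrawn Art-labelled array detected.

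**Figure D3:**
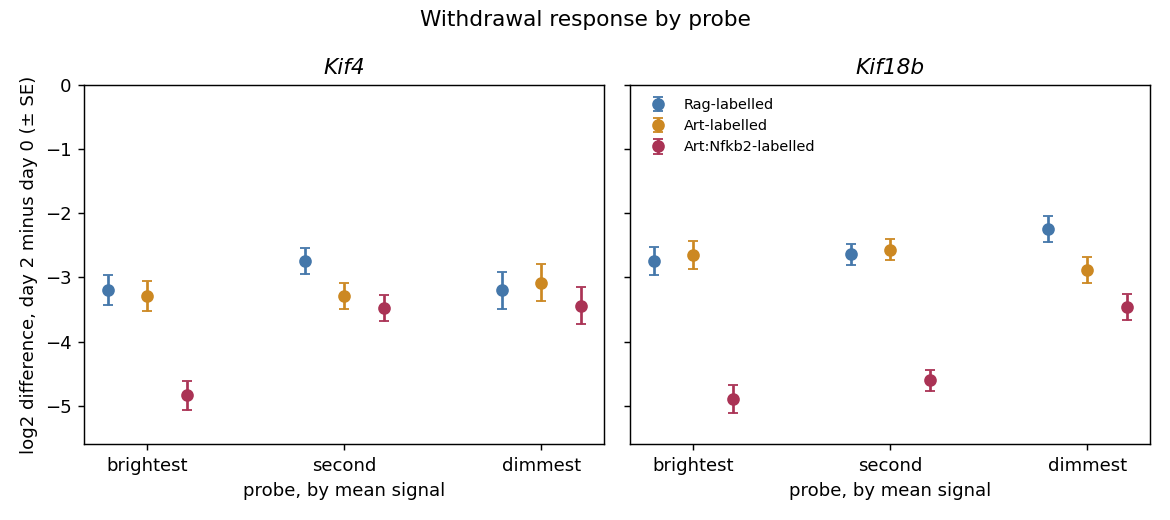
Change in log2 signal on IL-7 withdrawal (y axis, with SE) for each of 3 probes of Kif4 and of Kif18b (x axis, by mean signal), by genotype label (colour). The Art:Nfkb2-labelled cells lie apart on the brightest Kif4 probe and on the brighter 2 Kif18b probes; the dimmer probes were detected on few or no withdrawn arrays.

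The genes with which these motors work were read next, from lists chosen with earlier results of these data known. Of 34 mitotic partners 22 were tested, and 21 of 22 fell on withdrawal in each genotype. Of all entries 19.4% fell under the Rag label, 18.8% under the Art label and 17.9% under the Art:Nfkb2 label. The medians of the partners were -2.76, -2.79 and -3.42 for the Rag, Art and Art:Nfkb2 labels. Of those with a detected withdrawn signal in the genotype, 17 of 18, 18 of 19 and 16 of 17 fell, and with undetected arrays at the detection limit the medians were -2.47, -2.59 and -2.77. Prc1, which bundles midzone microtubules, changed by -2.72, -2.81 and -4.03, and Plk1, the kinase of mitotic entry and cytokinesis, by -2.98, -3.16 and -4.25. Cdk1, the kinase that drives entry into mitosis, changed by -3.61, -3.33 and -5.06, with 1 of 3 withdrawn Art:Nfkb2-labelled arrays detected. Tpx2, which builds spindle microtubules, left detection in all withdrawn cells and was at least 4.61-fold, 6.17-fold and 4.58-fold lower.

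In the difference of responses between Art:Nfkb2-labelled and Art-labelled cells, 2 of these 22 partners were called, both lower (0.107% of all entries), and the list median was -0.47, or -0.22 with undetected arrays at the limit, beside -0.02 for all entries. They were Nusap1, a spindle microtubule binder (-1.82, adjusted p = 0.0117), and Top2a, which untangles sister chromosomes (-1.70, adjusted p = 0.0338). Prc1 (-1.22, adjusted p = 0.21), Plk1 (-1.08, 0.614) and Cdk1 (-1.74, 0.245) were not called. Against Rag-labelled cells 5 of 22 were called lower, where 0.947% of all entries were. These partners were Birc5 of the chromosomal passenger complex (-1.91), Nusap1 (-1.67), Top2a (-1.65), Prc1 (-1.31) and the kinetochore gene Ndc80 (-1.07). Ndc80 also differed between Art-labelled and Rag-labelled responses, by -1.13 (adjusted p = 0.00588), and by 0.06 between Art:Nfkb2-labelled and Art-labelled ones (adjusted p = 0.995). After withdrawal 14 of 22 partners were called lower in Art:Nfkb2-labelled than in Art-labelled cells, where 2.21% of all entries were. The list median was -0.93. Of the 22, 5 were undetected in withdrawn Art:Nfkb2-labelled cells, so that median includes undetected signals. Tpx2, 1 of the 14, was detected on no withdrawn array of either genotype. In this comparison Prc1 differed by -1.67 (limma adjusted p = 0.000272), Plk1 by -1.53 (0.00423) and Cdk1 by -2.18 (0.000788).

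DNA replication genes also fell on withdrawal, with close medians in the 3 genotypes. All 16 tested fell in each, where 19.4%, 18.8% and 17.9% of all entries did. The medians of the 16 were -2.09, -2.18 and -2.07. The helicase subunit Mcm2 changed by -1.86, -2.04 and -1.92, and the clamp Pcna by -1.52, -1.55 and -1.54. Rrm2, a subunit of ribonucleotide reductase, changed by -3.34 and -3.44, and its fall in Art:Nfkb2-labelled cells, where it left detection, was at least 10.4-fold. None of the 16 was called in the difference between Art:Nfkb2-labelled and Art-labelled responses by limma (1 at an unadjusted p below 0.05), and the median was 0.08. In withdrawn cells 3 were called lower in Art:Nfkb2-labelled than in Art-labelled cells (Mcm6, Rrm2 and Chaf1a), where 2.21% of all entries were. The licensing factor Cdt1 was higher. Rrm2, undetected in withdrawn Art:Nfkb2-labelled cells, was at least 1.22-fold lower.

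Of the transcription regulators of G2 and M phase, 6, 7 and 6 of 10 fell on withdrawal, where 19.4%, 18.8% and 17.9% of all entries did. In the same order 2, 1 and 2 rose, namely Rbl2 in each genotype and Lin37 under the Rag and Art:Nfkb2 labels. Foxm1 changed by -1.72, -2.06 and -2.16 and Mybl2, which encodes B-Myb, by -2.13, -2.65 and -3.23. The difference between Art:Nfkb2-labelled and Art-labelled responses was -0.10 for Foxm1 (adjusted p = 0.995) and -0.58 for Mybl2 (0.844), and 0 of 10 were called by limma (1 at an unadjusted p below 0.05). In withdrawn cells Foxm1 (-0.61, adjusted p = 0.00677), Mybl2 (-0.998, 0.00854) and E2f1 (-0.57, 0.0289) were lower in Art:Nfkb2-labelled than in Art-labelled cells. Foxm1 was also lower in IL-7 (-0.51, adjusted p = 0.0247).

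Kinesins without a main role in mitosis were read as well. Of 10 tested transport and other kinesins none was called lower on withdrawal in any genotype, and 5, 5 and 3 rose. In the same order 19.4%, 18.8% and 17.9% of all entries were called lower. Of 8446 entries, 3753, 3803 and 3428 were called in either direction, 56.2%, 58.2% and 56% of them higher. The 10 genes are few beside these shares, so their counts are a description only. Kif3a of intraflagellar transport changed by 0.11, -0.06 and -0.15, Kif5b, the heavy chain of conventional kinesin, by 0.25, 0.25 and 0.24, and the mitochondrial and vesicle motor Kif1b by 0.08, 0.46 and 0.34, called in the last 2. None of these 10 was called in the difference between Art:Nfkb2-labelled and Art-labelled responses by limma (0 at an unadjusted p below 0.05), with a median of -0.07. Kif2a, a depolymerase related to Kif2c that non-dividing cells also use, changed by -0.26, -0.09 and 0.04, none of them called. Kif24, a centriole kinesin and the other of the 2 division kinesins tested outside the members, was detected on all arrays in IL-7 and on none after withdrawal, falls of at least 1.55-fold, 2.01-fold and 1.63-fold. A difference between its falls could not be measured. Cenpe had 1 probe, which did not pass the detection filter, and no probe carried the symbols Kifc1 or Kif20b.

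**Figure D4:**
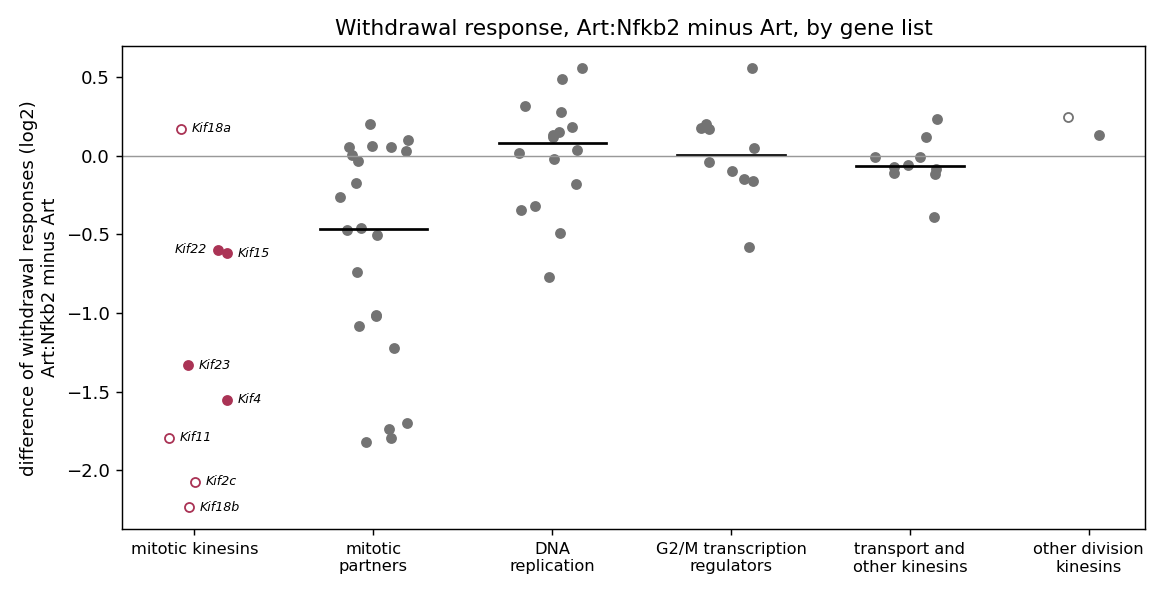
Difference of withdrawal responses on the log2 scale, Art:Nfkb2-labelled minus Art-labelled (y axis), for genes of 6 lists (x axis); each point is 1 gene and bars are medians of the 4 longer lists other than the mitotic kinesins. Open points are the 3 chosen genes Kif2c, Kif11 and Kif18b, and Kif18a and Kif24, which no withdrawn array detected. Filled points are not all detected after withdrawal. Tpx2, a filled mitotic partner, was detected on no withdrawn array, so its difference could not be measured. Kif4, also filled, was detected on no withdrawn Art:Nfkb2-labelled array. The median of the mitotic partners is -0.47 and those of the other 3 lists with a bar lie between -0.07 and 0.08.

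The genes most like the kinesins over the 18 arrays, by Pearson's r with the mean profile of the 8 genes, were Top2a (0.9984), Sgo1, which protects sister chromatid cohesion (0.9984), a probe without a gene symbol (0.9977), Cdca2, which recruits a phosphatase to chromosomes at mitotic exit (0.9976), and Nusap1 (0.9975). The arrays share the 2 days as a large common source of variation, so these values describe the profile only. Among the 8 themselves r with that mean was lowest for Kif18a, at 0.951, and highest for Kif4, at 0.998. Cdca2 differed between Art:Nfkb2-labelled and Art-labelled responses by -1.05 (adjusted p = 0.13) and was not called. Sgo1 was detected on no withdrawn Art:Nfkb2-labelled array, and its difference was -0.31 with those arrays at the detection limit.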

How the data were processed

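RNA of 18 samples (6 groups of 3, from 9 cultures) was read as probe intensity. Per the file headers, the authors' main table lists for every probe a non-normalized intensity and a detection p-value on each array. A second deposited intensity, in the series matrix, is linear, background-subtracted and quantile-normalized as its values show, and served as an alternative. Partek and GenomeStudio were used, per the submitters' processing notes; probe sequences were not used here, and promoter sequences came from RefSeq (GRCm38.p6). Median raw signal was 129.3 to 163 per array and 39.3% to 42.4% of probes were detected; replicates correlated at 0.979 to 0.993, and no 2 arrays were identical. The number of arrays limits the precision.

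Signals were background-corrected and quantile-normalized with neqc (offset 16; limma 3.58.1, R 4.3.3) and put on the log2 scale. A probe was kept (11356 in all) if 3 or more arrays had a detection p below 0.01, and genes with several were represented by the brightest, giving 8446 entries, 673 of them without a symbol. Of all probes, 23978 had 1 symbol, 0 several and 1719 none. All tests were limma fits (lmFit, eBayes) of the 6 group means, two-sided, with Benjamini-Hochberg adjustment over all entries for each of 10 comparisons and a threshold of 0.05, at which the text writes called, rose or fell. Genes undetected in a group have a bound against the lowest detected signal. The script was tested on simulated data.

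The members and gene lists were chosen with earlier results of these data known. Genes named are the members, fixed examples of each list, the targeted genes, the 5 entries most like the kinesins and, seen afterwards, list genes where 5 or fewer were called. Alternatives were scaling to a common median, the series matrix, an offset of 50, no filter, the mean of a gene's probes, only the groups compared, an intensity trend, the culture as a replicate block, and leaving out each array or culture. Replicate numbers come from the sample titles, and the design text speaks of independent cultures. All 9 same-numbered pairs of a genotype deviated together (correlations of deviations 0.374 to 0.588, each highest with its own number), so the numbers were taken to pair the samples. The main limma fits did not use this pairing, and the replicate block did.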

Additional observations from a re-analysis of the deposited data

Results flagged for a closer look

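For 3 results the response to IL-7 withdrawal differed between genotypes by the limma test of the difference itself. Kif23 fell further in Art:Nfkb2-labelled than in Art-labelled cells, with a difference of -1.33 on the log2 scale (adjusted p = 0.0487), in 3 of 3 cultures. Kif23 also fell further than in Rag-labelled cells, with a difference of -1.14 (adjusted p = 0.0296), and so did Kif4, with a difference of -1.64 (adjusted p = 0.015), in 3 of 3 cultures each. Kif4 was undetected in withdrawn Art:Nfkb2-labelled cells, and its difference from Rag-labelled cells was -0.89 with those arrays at the detection limit. Of 26 other settings each, Kif23 was called in 4 against Art-labelled and in 12 against Rag-labelled cells, and Kif4 in 22. The Kif4 call rested on its brightest probe and was lost with the mean of its probes. Its dimmer probes differed by -0.74 and -0.25 and were not called.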

How the results depend on the processing

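Counts of kinesins changed with the processing in 4 comparisons; here they are of 5, with Kif18a, which no withdrawn array detected. Without Rag culture 1 its fitted value was called in Art:Nfkb2 minus Rag responses (0.904, adjusted p = 0.0481) and in Art against Rag after withdrawal (0.686, 0.00856), on undetected signals. For Art:Nfkb2 minus Art responses, 1 was called as reported, 0 with arrays scaled to a common median, the authors' series matrix values, an offset of 50, no filter on dim probes or the mean of a gene's probes, 2 with the replicate block, and 0 to 2 with an array or culture left out. For Art:Nfkb2 minus Rag responses, 2 were called as reported, 1 with arrays scaled to a common median, no filter or the mean of probes, 3 with the replicate block, and 0 to 2 with an array or culture left out. For Art:Nfkb2 against Art in IL-7, 0 became 1 with only the groups of the comparison. For Art against Rag after withdrawal, 0 became 1 with an offset of 50 and 1 with an intensity trend, and was 0 to 2 with an array or culture left out. The cause of these changes was not tested. The replicate block changed no other call.

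Reversed signs were all of differences that were not called. With arrays scaled to a common median these were Kif4 in Art minus Rag responses (0.0925) and Kif18a in Art against Rag in IL-7 (-0.0143). With an array or culture left out the ranges were -0.00505 to 0.323 for Kif18a in Art:Nfkb2 minus Art responses, -0.319 to 0.171 for Kif4, -0.331 to 0.112 for Kif22 and -0.0114 to 0.39 for Kif23 in Art minus Rag responses, -0.0275 to 0.453 for Kif4 in Art against Rag after withdrawal and -0.0455 to 0.214 for Kif18a in Art against Rag in IL-7. Over single genes and settings, 1560 kept their direction and side of the threshold, 40 lost the call, 16 gained it, 16 reversed, and 40 untested values moved.

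Over all entries the Art:Nfkb2 minus Art count was 18, against 92 with the replicate block, 39 with only those groups, 8 with common-median scaling, 9 without the filter and 0 without Art:Nfkb2-labelled culture 1 or 2. The Art:Nfkb2 minus Rag count was 164, against 431, 108 and 159 with the first 3 of these, and the Art minus Rag count 107, against 363, 42 and 57. With only the groups compared, Rag-labelled withdrawal gave 2094 in place of 3753, Art against Rag after withdrawal 980 in place of 1607 and in IL-7 248 in place of 546; Art:Nfkb2 against Art in IL-7 gave 246 in place of 371 with median scaling. Median scaling moved the median of all entries from -0.01 to 0.20 in Art:Nfkb2 minus Rag responses, from 0.00479 to 0.11 in Art minus Rag responses and from -0.01 to -0.15 in Art against Rag in IL-7, and the share of calls that were higher from 51.2% to 80.5%, 61.7% to 77.2% and 56.2% to 33.9%. Signals near the detection limit bound what could be measured for Kif2c, Kif4, Kif11 and Kif18a.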
